A study of Mus musculus with 19 samples.

Results

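Tenocyte-like cells carrying UMIs of both Scx and Tnmd were taken from a single-cell RNA-seq series on heterotopic ossification, the formation of bone in soft tissue, in mice given a dorsal burn and a cut through the Achilles tendon (burn/tenotomy). Members were chosen by measured values: a cell was taken if it had at least 500 detected genes and at most 25% mitochondrial UMIs (the transcript molecules counted in that cell), at least 1 UMI of Scx, at least 1 of Tnmd and at least 1 of Fmod, Thbs4 or Mkx, at most 1 UMI of Ptprc, none of Cdh5 and at most 1 of Col2a1. Of 39541 kept cells in 19 libraries, 2442 (6.18%) were members.

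Tendon cells are fibroblasts that lie between parallel bundles of type I collagen and build and repair that matrix. Scx encodes scleraxis, the transcription factor that marks the tendon lineage from the embryo onwards. Tnmd encodes tenomodulin, a membrane protein of mature tendon that acts downstream of scleraxis, and Mkx encodes Mohawk, a homeobox factor of tendon. Fmod (fibromodulin) is a small proteoglycan that binds collagen fibrils, and Thbs4 (thrombospondin 4) is a glycoprotein of the tendon matrix. After the Achilles tendon is cut, tendon cells and the tissue around them form scar and, in this model, cartilage that later ossifies.

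All libraries came from the tenotomy site. The labels give the model, a burn over 30% of the body surface with Achilles tenotomy, for C57 and LysmCre/Tgfb1fx/fx mice together and assign no genotype to a library; LysmCre drives recombination in myeloid cells. The paper's methods describe the wild type mice as young adult males. There were 4 libraries each at day 0, day 7 and day 21, 3 at day 3, and 4 from mice given p7N3, a CD47 activating peptide, at 10 mg/kg intraperitoneally each day from 3 days before to 3 days after injury. Day 0 is described by the study as no injury, although the labels list the burn there too. Replicates 1 to 3 of p7N3 were collected at day 7, and the label of replicate 4 gives no day. The labels name no vehicle library, so p7N3 libraries are set against day 7 libraries. The labels do not say how many mice went into a library, so p-values measure the spread between libraries. Replicate 4 of day 0, day 7, day 21 and p7N3 was processed against mm10 according to the submitters' processing notes, which name GRCh38 for all other libraries, although the methods name mm10 and every gene identifier is a mouse one. Results without replicate 4 are given for the shares, for the counts of changed genes and for Ctgf, but not for the comparison with other stromal cells.

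Members numbered 2, 4, 12 and 8 in day 0 replicates 1 to 4, and 8, 22 and 4 in the day 3 replicates. Day 7 held 114, 448, 313 and 218, p7N3 101, 212, 126 and 115, and day 21 202, 64, 87 and 382. The 26 cells of day 0 and the 34 of day 3 therefore carry far less weight than the 1093, 554 and 735 of day 7, p7N3 and day 21. The summed UMIs of the members ran from 19388 to 70787 per library at day 0 and from 1281499 to 8873739 per library at day 7, p7N3 and day 21. The median member had 18969 UMIs, 4069.5 genes and 2.81% mitochondrial UMIs, and median UMIs per member were 7718 at day 0, 40883.5 at day 3, 17521 at day 7, 18752.5 in p7N3 and 22155 at day 21. Levels below are in CPM, the UMIs of a gene as a share of all UMIs of the members of that library, scaled to 1000000.

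Some libraries and cells stood apart. Day 0 replicate 1 was deposited with 737280 barcodes, before cell calling, and its 2 members held 4694 CPM over the 13 macrophage and monocyte markers of a list, against 170, 155 and 153 CPM in the other day 0 libraries. Of these 2 cells, 1 lay in a cluster led by Pf4, Saa3 and Lyz2. At day 3, 33 of 34 members lay in that same cluster, whose leading genes (Pf4, Saa3, Lyz2, Lcn2, Cd74, C1qb) are those of macrophages and of acute inflammation. These leading genes were computed over all 84 cells of the cluster and not over its day 3 cells alone. Lyz2 stood at 2172 CPM in the cluster and at 868, 831 and 850 CPM in the members of day 3 replicates 1 to 3. The label tenocyte-like is thus not borne out by the cluster in which the day 3 members lay, and they are called only cells that met the rule. Of the 2442 members, 6 barcodes occurred as members in more than 1 library, and 128 member cells had a barcode that was also a kept cell of another library. Scrublet doublet scores among the top 3.9% of their library, the multiplet rate named in the protocol, were found in 107 members (4.38%). These included 5 of 26 at day 0, 3 of 34 at day 3 and 36 of the 84 cells of the Pf4 cluster.

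Summed levels of markers of other cell types in the members differed between times. The 13 macrophage and monocyte markers summed to 2559 ± 238 CPM at day 3 (SD, n = 3), 1034 ± 401 at day 7, 897 ± 159 in p7N3 and 291 ± 60.8 at day 21 (n = 4 each). In cells with Ptprc UMIs of the same libraries the same list reached 33036 CPM at day 3, 56329 at day 7 and 63030 at day 21. Lyz2, the lysozyme gene of macrophages and granulocytes, was the most abundant of the list over all members. Granulocyte markers summed to 1667 ± 417 CPM at day 3 and 120 ± 43.8 at day 7. Group means of endothelial markers were 17.6 to 43.3 CPM, of adipocyte markers at most 2.09 CPM, of lymphocyte markers 1.23 to 5.32, of keratinocyte markers 12.8 to 48.6, of Schwann cell markers 7.78 to 65.3 and of pericyte and smooth muscle markers 67.3 to 198. Hemoglobin and other erythrocyte markers, which free RNA can bring to any cell, averaged between 621 and 1063 CPM, and general fibroblast markers between 1114 and 3527 CPM. Osteoblast markers were at 0 at day 0 and averaged 81.1 ± 133 CPM at day 3, where replicate 1 held 235 CPM, and at most 5.46 CPM at day 7, in p7N3 and at day 21. Chondrocyte markers, of which the rule itself limited Col2a1, averaged 60.8 CPM at day 0, 349 ± 91.4 at day 7, 315 ± 39.6 in p7N3 and 424 ± 97.6 at day 21, with Acan the most abundant from day 3 on and Matn1 and Col10a1 at 0. Skeletal muscle markers reached 3379 CPM in p7N3 replicate 4 and at most 156 CPM in the other p7N3 libraries. The part of these markers in the results below was not tested.

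The genes of the rule chose the cells, so their levels are a description. Members had a median of 4 UMIs of Scx and 13 of Tnmd. Fmod was found in 88.7% of members, Thbs4 in 96.0% and Mkx in 22.3%. All of Fmod, Thbs4 and Mkx were found in 480 members, a pair of them in 1653 and a single one in 309, of which 219 had only Thbs4, 78 only Fmod and 12 only Mkx. Just inside the rule lay 567 members with exactly 1 UMI of Scx and 132 with exactly 1 of both Scx and Tnmd. Just outside it, 2505 cells missed only the Scx condition, 1168 only Tnmd, 68 only the Fmod, Thbs4 or Mkx condition, 296 only Col2a1, 157 only Cdh5 and 42 only Ptprc.

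Tnmd, Fmod, Thbs4 and Scx had their highest mean levels at day 0. Members of day 0 were also the shallowest, and a shallow cell needs higher levels of these genes to meet the rule. Tnmd stood at 1186, 3785, 3574 and 5261 CPM in the day 0 libraries, and averaged 71.7 CPM at day 3, 963 at day 7, 956 in p7N3 and 1590 at day 21. Fmod averaged 8359 CPM at day 0, 376 at day 3, 620 at day 7, 581 in p7N3 and 2070 at day 21. Thbs4 averaged 5685, 579, 1459, 1561 and 2831 CPM in the same order. Scx varied less, with means of 636, 112, 310, 302 and 252 CPM, and Mkx was the lowest, with 96.2 CPM at day 0 and at most 19.8 CPM on average at every other time. In cells with Ptprc UMIs, which should lack these genes, Tnmd averaged 28.6 CPM at day 7 and 94.6 at day 21.

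Members made up a larger share of the cells at day 7 and day 21 than at day 0. The share was 0.199%, 0.700%, 1.08% and 0.913% of kept cells in the day 0 libraries and 0.407%, 1.03% and 0.237% in those of day 3. It was 3.49%, 12.5%, 8.53% and 7.51% at day 7, 3.66%, 5.89%, 4.96% and 4.55% in p7N3, and 13.1%, 7.06%, 9.21% and 19.5% at day 21. Every day 7 and day 21 library lay above every day 0 library, whereas day 7 overlapped with both p7N3 and day 21, and day 3 with day 0.

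**Figure D1:**
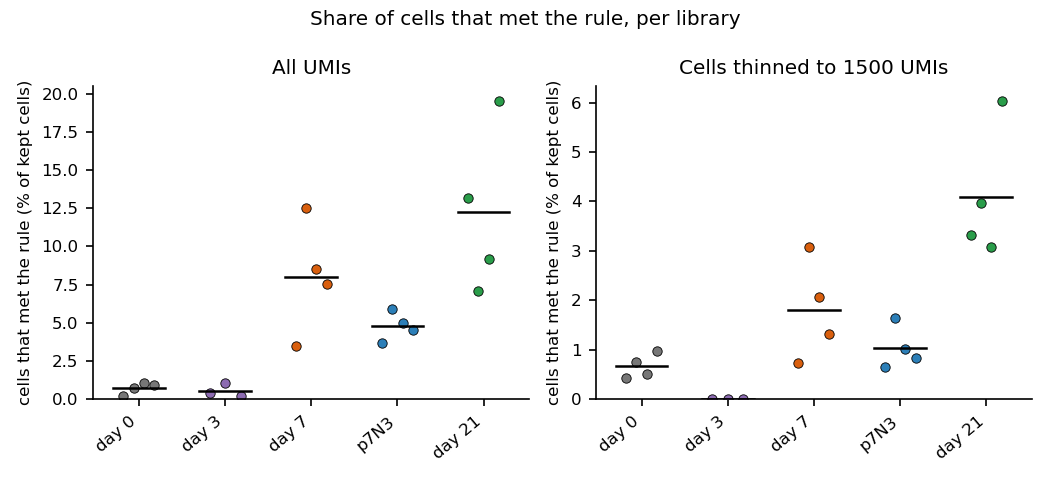
Share of cells that met the rule among kept cells (%, vertical axis) in each library by group, with all UMIs (left) and after thinning to 1500 UMIs per cell, without shallower cells (right). Points are libraries and bars are group means; the day 21 mean is the highest in both panels, at 12.2% and 4.10%.

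The mean share was 0.723 ± 0.382% at day 0, 8.01 ± 3.71% at day 7 and 12.2 ± 5.48% at day 21 (SD, n = 4). Both rises over day 0 gave p = 0.0286 in an exact two-sided permutation test over libraries, the smallest value that 4 against 4 allows, and 0.0714 after Benjamini-Hochberg adjustment over the 5 comparisons. Neither the difference between day 21 and day 7 (exact permutation p = 0.229) nor that between p7N3 and day 7 (8.01% against 4.77 ± 0.926%, exact permutation p = 0.143) exceeded the spread between libraries, and day 3, at 0.558 ± 0.417%, did not differ detectably from day 0 (exact permutation p = 0.629). Since the rule needs UMIs of several genes, depth bears on it. With cells thinned to 1500 UMIs, which left 298 of 3561 day 0 cells out of the denominator as too shallow and no cell of the other groups, the mean shares were 0.665% at day 0, 1.80% at day 7, 1.04% in p7N3 and 4.10% at day 21, and 0 of 5795 day 3 cells met the rule, which allows a share of up to 0.0518% with the 3 libraries pooled and covers counting error only. Then day 7 and day 0 overlapped (exact permutation p = 0.0857), and day 21 still lay wholly above day 0 (exact permutation p = 0.0286). Without replicate 4 the mean share exceeded day 0 by 7.52 percentage points at day 7 and 9.14 at day 21, where 3 against 3 libraries allow no p below 0.1. Day 21 then exceeded day 7 by 1.62 percentage points, against 4.22 with all libraries. The difference of p7N3 from day 7 was then -3.35 percentage points, against -3.25 with all libraries.

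The matrix genes Cilp2 and Chad were lower in members of day 7 than in those of day 0. Cilp2 encodes a cartilage intermediate layer protein and lies on chromosome 8 (69880369 to 69887687, minus strand, GRCm38, as are all positions here). Its levels were 825, 2126, 1540 and 1693 CPM at day 0, 18.4, 3.95, 3.01 and 10.6 CPM at day 7 and 174, 223, 126 and 144 CPM at day 21. The lowest day 0 library thus lay above every day 21 library, and the lowest day 21 library above every day 7 library. Chad, encoding the leucine-rich matrix protein chondroadherin (chromosome 11, 94565047 to 94569127, plus strand), stood at 413, 1595, 1116 and 946 CPM at day 0, 10.7, 0.51, 2.07 and 0.866 at day 7, and 59.6, 99.9, 33.5 and 41.1 at day 21. Its 3 times were again separate from one another. Members of day 0 were shallower than those of day 7 and day 21, and the part of depth in these levels was not tested.

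Comparisons with day 0 were fitted with edgeR on UMIs summed over the members of each library. Too few day 0 and day 3 libraries reached 10 members for the fit as planned, so all 4 libraries of day 0 entered whatever their number of members, and day 3 was not fitted. The comparisons of day 7 and day 21 with day 0 share the day 0 libraries, and those of day 21 and p7N3 with day 7 share the day 7 libraries, so each is described by its own values. Against day 0, 1098 of 8043 genes passed an adjusted p of 0.05 at day 7 (13.7%), of which 758 were higher (9.42%) and 340 lower (4.23%) in day 7. At day 21, 546 of 6247 genes passed (8.74%), 365 higher (5.84%) and 181 lower (2.90%). Of the 758 genes called higher at day 7, 93 had no UMI in any day 0 member.

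The split between directions moved with the scaling. With relative log expression factors in place of TMM, 56.9% of the called genes were higher at day 7 against 69.0%, and 58.9% were higher at day 21 against 66.8%. The median log2 change of all genes tested at day 7 was 0.33 with TMM and 0.17 with relative log expression. Replicates 1 to 3 alone gave 593 called genes at day 7 and 249 at day 21. Without day 0 replicate 1, the library with macrophage markers, 1283 and 743 genes were called. Without 1 of the day 7 libraries, 423 to 462 were called at day 7 and 38.96% to 40.37% of them were higher, and without 1 of the day 21 libraries, 241 to 303 at day 21 and 39.76% to 41.58% higher, so that the balance of directions turned; 1165 to 1180 and 1082 to 1104 genes were then tested.

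Most tendon genes outside the rule were lower than at day 0. Median UMIs per member were 7718 at day 0, 17521 at day 7 and 22155 at day 21. A shallower cell needs higher levels of Scx and Tnmd to meet the rule, so its part in these differences has to be kept in mind. With the rule on thinned cells, 85 values of named genes kept their side of the threshold at day 7, 6 lost it, 3 gained it and 0 reversed. At day 21, 90 kept it, 13 lost it, 4 gained it and 0 reversed. Of 20 tested at day 7, 12 were lower and 2 higher, with a median log2 change of -2.45 where that of all genes tested was 0.33. Of 19 tested at day 21, 11 were lower and 1 higher. Cilp2 was lower at day 7 by a log2 fold change of -7.43 (SE 0.439, edgeR quasi-likelihood, adjusted p = 8.98e-10) and at day 21 by -3.07 (SE 0.273, edgeR quasi-likelihood, adjusted p = 2.34e-06). Chad, of the small proteoglycan list, was lower at day 7 by -8.58 on the log2 scale (SE 0.509). Chodl, encoding the membrane lectin chondrolectin, averaged 772 ± 421 CPM at day 0, 5.64 ± 8.31 at day 7 and 25.6 ± 16.9 at day 21. Tnxb, encoding tenascin X, whose loss makes connective tissue lax, averaged 454 ± 110, 9.81 ± 6.37 and 23.5 ± 13.6 CPM in the same order. For both genes day 0 lay wholly above day 7 and day 21.

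**Figure D2:**
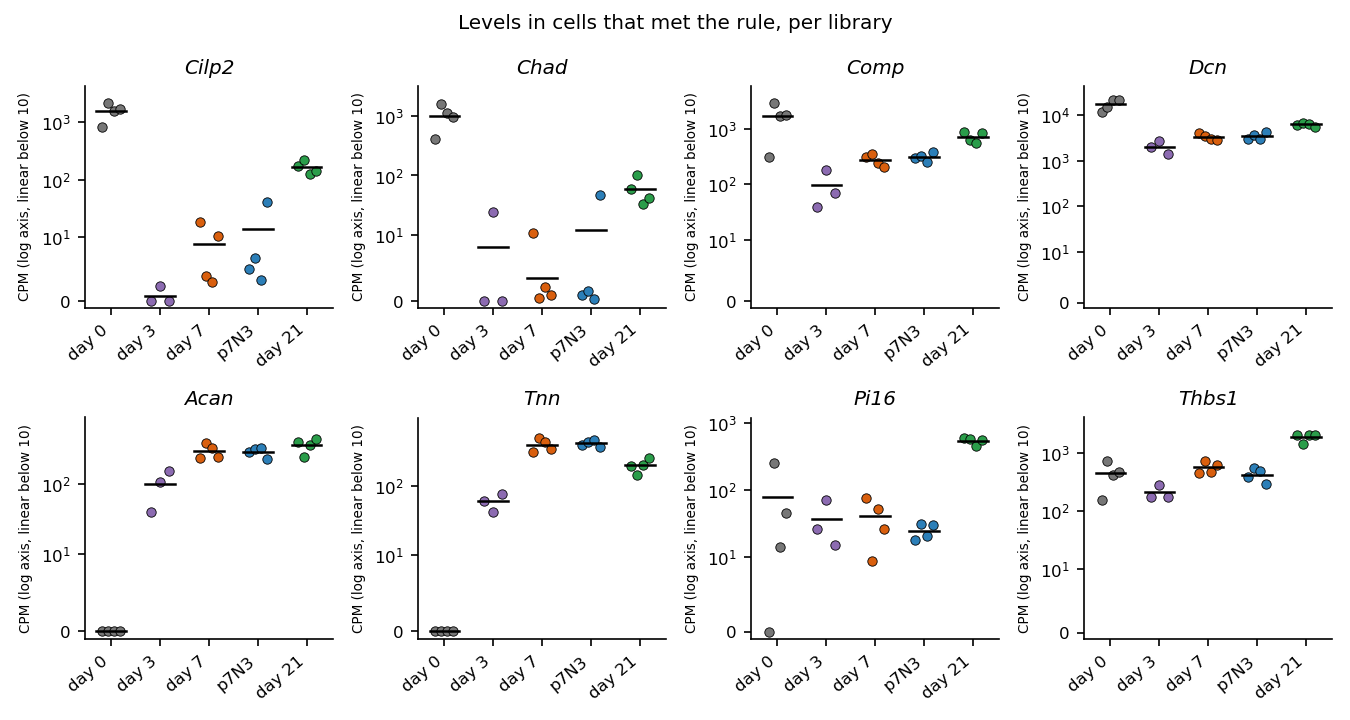
Levels of 8 genes in the cells that met the rule in each library, by group (CPM, log axis, linear below 10). Points are libraries and bars are group means. Cilp2 and Chad are highest at day 0 and lowest at day 3 or day 7, Acan and Tnn are at 0 in each day 0 library, and Pi16 and Thbs1 are highest at day 21.

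The small leucine-rich proteoglycans, which bind collagen and set fibril width, gave 6 lower and 2 higher of 10 tested at day 7. Dcn (decorin) stood at 11811, 14989, 21416 and 21793 CPM at day 0, 4009, 3563, 2992 and 2846 at day 7 and 6116, 6865, 6555 and 5431 at day 21. Prelp stood at 1341, 744, 1158 and 1662 CPM at day 0, 60.1, 78.4, 58.2 and 84.2 at day 7 and 424, 452, 431 and 406 at day 21. In both genes the 3 times were separate, with day 0 highest and day 7 lowest. Lum (lumican) went the other way and averaged 450 ± 289 CPM at day 0 and 3284 ± 137 at day 21 (log2 fold change 2.88, SE 0.318, edgeR quasi-likelihood, adjusted p = 2.11e-05).

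Other genes high at day 0 covered several roles. Mgp (matrix Gla protein), an inhibitor of mineralization, stood at 2940, 18795, 9013 and 16806 CPM at day 0 and 1600, 747, 794 and 821 at day 7, so that the groups did not overlap although day 0 replicate 1 lay near day 7. Clec3b (tetranectin) fell from 1890 ± 1058 CPM to 67.4 ± 41.4, and Tppp3, a marker of tendon sheath cells, from 588 ± 420 to 38.2 ± 13.5. Id1 and Id2, targets of BMP signals, averaged 133 ± 126 and 383 ± 76.9 CPM at day 0 and 4.30 ± 1.43 and 28.9 ± 8.07 at day 7, and both passed the test. Of 14 BMP and GDF pathway genes tested, 3 were lower and none higher at day 7.

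A number of genes had no UMI in any day 0 member and were abundant afterwards. Acan encodes aggrecan, the large proteoglycan of cartilage (chromosome 7, 79053483 to 79115099, plus strand). It was at 0 in all 4 day 0 libraries and at 232, 375, 320 and 239 CPM at day 7. At day 21 it was at 394, 239, 357 and 438 CPM, overlapping day 7. Tnn encodes tenascin N (chromosome 1, 160085029 to 160153580, minus strand), a matrix protein, and stood at 311, 489, 437 and 341 CPM at day 7 and 191, 143, 198 and 257 CPM at day 21.

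Against a floor of 3 UMIs over the 202781 UMIs of the day 0 members (14.8 CPM), Acan was at least 19.7-fold higher at day 7 and at least 24.1-fold higher at day 21. Tnn was at least 26.7-fold and at least 13.3-fold higher. H19, the imprinted noncoding RNA of growing tissues, was at least 60.1-fold higher at day 7 and at least 24.8-fold at day 21, and Lrrc15, a membrane protein of TGF-β activated fibroblasts, at least 14.7-fold and 11.6-fold. These 4 genes entered the fits through the later group alone and could only come out higher, so the bound and not the test describes them. After thinning to 1500 UMIs, 33.5% of day 7 members and 36.3% of day 21 members had an Acan UMI, against 4.87% and 5.01% of other stromal cells, 1.04% and 2.35% of cells with Ptprc UMIs, and 0 of 26 day 0 members pooled over 4 libraries, which allows a share of up to 11.5% (80.2%, 80.4%, 18.7%, 14.7%, 3.66%, 9.41% and 0 of 26 before thinning). Counts and floors cover counting error only.

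Cytoskeletal and inflammatory genes were among those higher at day 7. Of 22 cell cycle genes tested, 11 had no UMI at day 0 and could only come out higher. Of the 13 called higher, 10 were among these, which leaves 3 with a day 0 level. The median log2 change of the 22 was 5.34, or 1.46 with genes absent at day 0 set at their bound. Cdk1, the kinase that drives mitosis, averaged 67.3 ± 6.42 CPM at day 7. The cytoskeleton and contractile list gave 16 higher and 1 lower of 21, led by Acta2 (smooth muscle actin) at 155, 191, 184 and 107 CPM at day 0 and 740, 1624, 1231 and 1479 at day 7. Of 23 inflammatory mediators 9 were higher and 1 lower, where 4 of the 23 and 3 of the 9 had no UMI at day 0 and could only come out higher. The others included the chemokine genes Cxcl12 (75.2 ± 53.8 to 471 ± 79.2 CPM) and Cxcl1 (3.81 ± 7.62 to 329 ± 106 CPM). The day 0 mean of Cxcl1 lay below the floor of 3 UMIs given above (14.8 CPM), so Cxcl1 too could only come out higher. Beside these, the granulocyte marker S100a9 averaged 5.32 ± 10.6 CPM at day 0, below the same floor and found in replicate 2 alone, and 55.2 ± 19.1 at day 7. S100a8, with no UMI at day 0, stood at 60.4 ± 24.3 CPM at day 7. Both markers could only come out higher. Pericyte and smooth muscle markers, which summed to 67.3 CPM at day 0 and 114 at day 7, had a median log2 change of 0.90 over 4 tested; 1 passed, Rgs4, with no UMI at day 0. Macrophage and monocyte markers had a median log2 change of 1.006 over 11 tested, of which 0 passed by edgeR and 4 had an unadjusted p under 0.05; their part in these results was not tested. Fabp5, a fatty acid binding protein, averaged 11.2 ± 14.5 CPM at day 0, also below the floor of 14.8 CPM, and 495 ± 138 at day 7. Of 19 fibrillar and associated collagens, 9 were higher and 3 lower. Col5a1 rose from 519 ± 206 to 1366 ± 50.6 CPM and Col5a2 from 835 ± 244 to 2039 ± 197 CPM, while Col11a2 fell from 109 ± 41.1 to 10.1 ± 2.58 CPM.

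Day 21 and day 7 could be compared with at least 64 members per library. Of 11250 genes tested, 3424 passed (30.4%), 1699 higher (15.1%) and 1725 lower (15.3%) in day 21. The median log2 change of all genes tested was -0.03. Replicates 1 to 3 alone gave 2296 called genes, and the rule applied to cells thinned to 1500 UMIs, which leaves fewer members, gave 1388. Macrophage and monocyte markers were lower at day 21 in 11 of 13 tested, pericyte and smooth muscle markers higher in 6 and lower in 1 of 8, general fibroblast markers, a list that also holds Pi16, higher in 5 and lower in 0 of 9, and Schwann cell markers higher in 2 and lower in 0 of 3; their part in the results below was not tested.

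**Figure D3:**
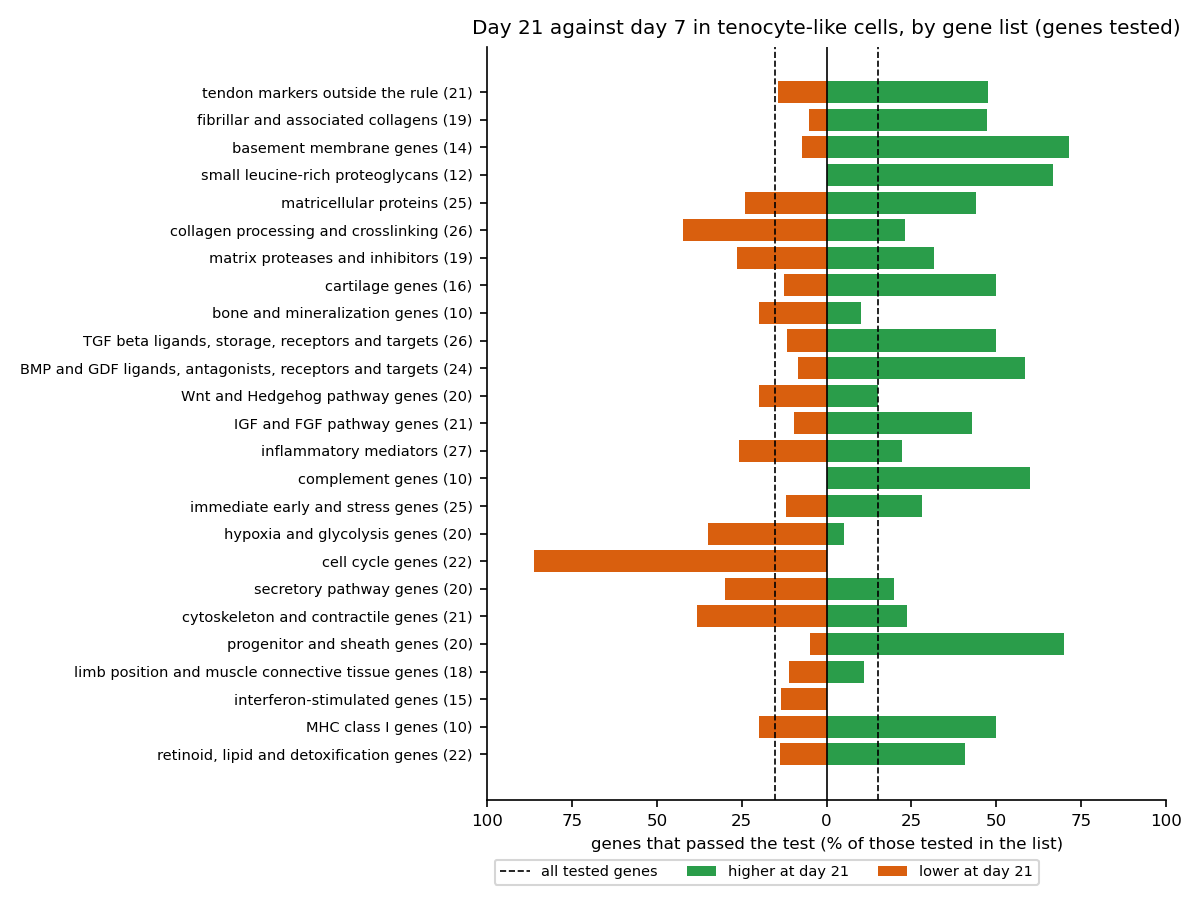
Share of the tested genes of each list (%, horizontal axis) that were higher (right) or lower (left) at day 21 than at day 7 in tenocyte-like cells; the number tested is in brackets and dashed lines mark all tested genes, 15.1% higher and 15.3% lower. Cell cycle genes lie to the left and basement membrane, progenitor and sheath genes and small proteoglycans to the right.

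The genes with the largest rises included matrix and secreted proteins. Pi16, a peptidase inhibitor of fibroblasts with progenitor features (chromosome 17, 29317680 to 29330593, plus strand), rose from 76.8, 9.44, 52.0 and 26.6 CPM at day 7 to 603, 567, 449 and 557 CPM at day 21. The groups were far apart, with a log2 fold change of 3.87 (SE 0.450, edgeR quasi-likelihood, adjusted p = 7.49e-05). Wfdc1, a secreted protein with a protease inhibitor fold (chromosome 8, 119666365 to 119688222, plus strand), stood at 4.29, 2.81, 0.942 and 1.95 CPM at day 7 and 113, 89.0, 78.6 and 93.1 at day 21. Its log2 fold change of 5.42 was the largest among the genes named by size (SE 0.234, edgeR quasi-likelihood, adjusted p = 7.67e-08). Nov (CCN3), a matricellular protein, averaged 16.1 ± 1.03 CPM at day 7 and 258 ± 124 at day 21, and Penk, encoding proenkephalin, 4.86 ± 1.23 and 74.2 ± 20.4. Fam180a, Gm17455, Eno3 and Cyp26b1 rose by 4.75, 3.18, 3.06 and 3.03 on the log2 scale, Eno3 being a muscle enolase and Cyp26b1 an enzyme that degrades retinoic acid.

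Tendon and collagen-binding genes were in part higher at day 21 than at day 7. Of 21 tendon genes outside the rule, 10 were higher and 3 lower at day 21, with a median log2 change of 0.96. Cilp2 rose by 4.51 on the log2 scale (SE 0.386) and Chad, of the small proteoglycan list, by 4.63 (SE 0.560). Mustn1, a small nuclear protein of the musculoskeletal system, rose from 12.1 ± 7.35 to 78.1 ± 14.7 CPM, and Comp, the cartilage oligomeric matrix protein that binds collagen in tendon, from 276 ± 62.2 to 722 ± 150. Tnc (tenascin C), a matrix protein of healing tissue, fell from 917, 867, 1001 and 821 CPM to 342, 361, 380 and 474. Small proteoglycans were higher in 8 and lower in 0 of 12 with a median log2 change of 1.00, with Prelp up by 2.67 on the log2 scale (SE 0.126, edgeR quasi-likelihood, adjusted p = 1.17e-07) and Epyc (epiphycan) from 1.68 ± 0.726 to 27.5 ± 11.8 CPM.

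Other matrix lists differed in their counts. Of 14 basement membrane genes, 10 were higher and 1 lower, with a median log2 change of 0.90, among them Col15a1, from 21.0, 13.6, 12.6 and 10.4 CPM at day 7 to 106, 133, 85.0 and 107 at day 21, and Lamb2, encoding laminin β2, from 34.1 ± 4.32 to 99.6 ± 3.25. The fibrillar and associated collagens gave 9 higher and 1 lower of 19. Col8a1 rose from 348 ± 39.3 to 1080.1 ± 201 CPM and Col27a1 fell from 117 ± 10.6 to 42.1 ± 11.5. Thrombospondin 1, encoded by Thbs1 (chromosome 2, 118111876 to 118127133, plus strand), activates latent TGF-β among other functions; Thbs1 stood at 460, 727, 479 and 624 CPM at day 7 and 2025, 1430, 2023 and 2070 at day 21, again without overlap. Genes that modify and cross-link collagen went both ways, with 6 higher and 11 lower of 26. Serpinh1, the collagen chaperone HSP47, fell from 2680.3 ± 384 to 1431 ± 78.1 CPM.

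Signalling genes were examined by pathway. In the TGF-β list 13 of 26 were higher and 3 lower (median log2 change 0.40); Tgfbi, a secreted protein induced by TGF-β, fell from 624 ± 33.6 to 275 ± 59.1 CPM and Ltbp2, a protein of the family that stores latent TGF-β, from 73.5 ± 18.9 to 27.5 ± 6.96. In the BMP and GDF list 14 of 24 were higher and 2 lower (median 0.63). The antagonists Chrdl1 and Chrd rose from 20.1 ± 3.64 to 61.7 ± 7.02 CPM and from 8.44 ± 2.35 to 30.4 ± 3.70, and the target gene Id1 from 4.30 ± 1.43 to 14.9 ± 2.81. The ligand genes Wnt16 and Fgf18 rose from 3.22 ± 1.40 to 29.7 ± 12.0 CPM and from 1.85 ± 0.644 to 20.9 ± 8.22. Wnt and Hedgehog genes as a list gave 3 higher and 4 lower of 20.

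The progenitor and sheath list, which includes Pi16, was higher in 14 and lower in 1 of 20 (median log2 change 0.62), with Has1 (hyaluronan synthase) rising from 17.0 ± 7.93 to 92.2 ± 23.4 CPM and Ly6c1 from 142 ± 28.5 to 436 ± 21.3. Complement genes gave 6 higher and none lower of 10. Cd55, which protects cells from complement, rose from 8.87 ± 2.35 to 57.0 ± 7.45 CPM. Crabp2, a retinoic acid binding protein, rose from 142 ± 3.25 to 487 ± 74.5 CPM, and Apod, a lipid carrier, from 89.7 ± 27.4 to 482 ± 118. The list of retinoid and lipid genes that holds both gave 9 higher and 3 lower of 22, the IGF and FGF list 9 and 2 of 21, matricellular proteins 11 and 6 of 25, and MHC class I genes 5 and 2 of 10. Close to balance were proteases and their inhibitors with 6 higher and 5 lower of 19, secretory pathway genes with 4 and 6 of 20, the cytoskeleton and contractile list with 5 and 8 of 21, and limb patterning genes with 2 and 2 of 18. Immediate early genes gave 7 higher and 3 lower of 25, and interferon response genes 0 higher and 2 lower of 15.

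Of 22 cell cycle genes at day 21, 19 were lower and none higher, with a median log2 change of -1.19. Hmgb2, a chromatin protein of dividing cells, stood at 157, 146, 209 and 197 CPM at day 7 and 65.9, 17.2, 34.1 and 80.3 at day 21, so the libraries did not overlap but those of day 21 spread widely. Cenpa, a centromere histone, fell from 85.9 ± 4.85 to 32.6 ± 14.0 CPM, a direction that turned over when the rule was applied to thinned cells.

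Cxcl5, a neutrophil chemokine, stood at 350, 98.8, 106 and 192 CPM at day 7 and 10.1, 30.4, 4.05 and 29.0 at day 21 (log2 fold change -3.22, SE 0.498, edgeR quasi-likelihood, adjusted p = 0.000542). Ptx3, a soluble pattern recognition protein, fell from 300 ± 122 to 39.5 ± 7.97 CPM and Prg4, encoding lubricin, from 321 ± 126 to 55.1 ± 20.7. S100a8, S100a9, Ctss, Tyrobp and Fcer1g, genes of myeloid cells, fell by between 2.12 and 2.73 on the log2 scale, beside the fall in the macrophage list given above. Among inflammatory mediators the direction was mixed, with 6 higher and 7 lower of 27, and of 20 hypoxia and glycolysis genes 7 were lower and 1 higher.

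Bone and cartilage genes were counted as separate lists. Of 10 bone and mineralization genes tested 1 was higher, Mgp (991 ± 408 to 4045 ± 1336 CPM), and 2 were lower, Runx2, the master factor of osteoblasts (27.9 ± 5.61 to 9.69 ± 2.96 CPM), and Spp1, encoding osteopontin (841 ± 148 to 348 ± 205 CPM). Of 16 cartilage genes 8 were higher and 2 lower. Hapln1, which ties aggrecan to hyaluronan, rose from 3.43 ± 1.24 to 14.0 ± 5.31 CPM and Pth1r, the receptor for parathyroid hormone related protein, fell from 53.4 ± 3.86 to 28.1 ± 5.01. Cells with at least 2 Col2a1 UMIs, which the rule leaves out, numbered 4, 66, 12 and 6 at day 7 and 42, 72, 60 and 178 at day 21. In cells with Ptprc UMIs the chondrocyte markers averaged 27.2 CPM at day 7 and 143 at day 21, where replicate 4 held 419. The part of RNA from such cells in the low levels of Hapln1, and of Epyc above, was not tested.

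The change from day 7 to day 21 was then set against the change in other stromal cells of the same libraries, defined as kept cells with Pdgfra but with no Scx or Tnmd UMI, at most 1 UMI of Ptprc and Col2a1 and none of Cdh5 (5585 cells in the series). The interaction of cell class with time, with the library as a block, tested the difference between the 2 changes. It passed for 318 of 12047 genes (2.64%), 228 with a higher (1.89%) and 90 with a lower (0.747%) change in tenocyte-like cells. The count ranged from 152 to 368 when 1 library was left out, with 152 without day 21 replicate 1, 180 without day 7 replicate 2 and 190 without day 7 replicate 4. Among markers of other cell types, 0 of 13 macrophage and monocyte genes passed by edgeR, with 6 at an unadjusted p under 0.05 and a median interaction of -0.77, where that of all genes tested was 0.04. The interaction was higher for Cspg4 of 8 pericyte, Myl1 of 6 skeletal muscle, Bglap2 of 2 osteoblast and Acan of 6 chondrocyte markers, and of 10 fibroblast markers it was higher for Pi16 and Clec3b and lower for Dpt. The part of these markers in the interaction was not tested.

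**Figure D4:**
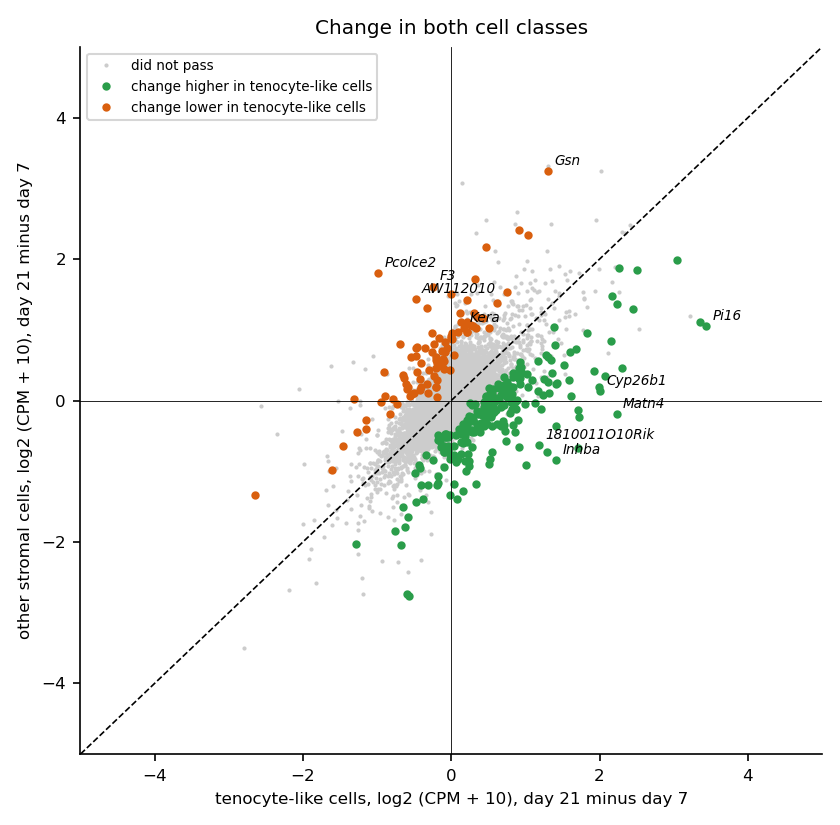
Difference of mean levels between day 21 and day 7, as log2 of CPM plus 10, in tenocyte-like cells (horizontal axis) and in other stromal cells (vertical axis); each point is a gene, the dashed line marks equal change, and colour marks the 228 and 90 genes whose change differed. The 5 largest differences in each direction are named.

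Pi16 stood at 647, 320, 711 and 423 CPM at day 7 and 1327, 1389, 963 and 731 at day 21 in other stromal cells, a smaller relative rise than in the tenocyte-like cells (interaction 3.04 on the log2 scale, SE 0.316, edgeR quasi-likelihood, adjusted p = 0.000389). Its level was lower in the members than in the other stromal cells of the same library in all 8 libraries. Inhba encodes the β subunit of activin A (chromosome 13, 16011851 to 16031621, plus strand). It stood at 22.3, 28.8, 28.8 and 21.2 CPM at day 7 and 137, 40.6, 42.8 and 117 at day 21 in members, and at 18.0, 39.3, 26.9 and 36.5 and then 14.9, 18.0, 8.21 and 8.24 in other stromal cells. Day 21 lay above day 7 in members, while in other stromal cells day 21 lay lower and touched day 7 at 18.0 CPM, with an interaction of 3.35 on the log2 scale (SE 0.357, edgeR quasi-likelihood, adjusted p = 0.000458).

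Thbs1 gave an interaction of 1.99 (SE 0.155, edgeR quasi-likelihood, adjusted p = 3.83e-05), its mean in other stromal cells being 226 CPM at day 7 and 204 at day 21. Crabp2 moved from 106 to 62.4 CPM in other stromal cells, against the rise in members. Cyp26b1, Matn4 (matrilin 4) and 1810011O10Rik gave interactions of 2.77, 2.70 and 2.71 on the log2 scale. Cartilage genes gave 5 higher and 0 lower of 17, among them Col11a1, Sox9 and Acan. Col11a1 moved from 520 ± 126 to 876 ± 111 CPM in members and from 116 to 74.7 CPM in other stromal cells.

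The lower interactions included genes that rose more outside the tenocyte-like cells. Pcolce2, a collagen propeptidase enhancer (chromosome 9, 95637601 to 95698096, plus strand), stood at 29.2, 22.7, 25.2 and 24.5 CPM at day 7 and 10.3, 10.1, 5.20 and 5.75 at day 21 in members, but at 63.6, 29.9, 46.5 and 45.4 and then 180, 279, 214 and 75.2 CPM in other stromal cells. Its day 21 libraries lay below those of day 7 in members and above them in other stromal cells (interaction -3.38, SE 0.247, edgeR quasi-likelihood, adjusted p = 3.67e-05). Gsn (gelsolin), an actin severing protein, rose from 226 ± 29.8 to 573 ± 117 CPM in members and from 869 to 8308 CPM in other stromal cells. Osr1, a transcription factor of muscle connective tissue, moved from 33.2 ± 5.85 to 13.0 ± 0.990 CPM in members and from 64.9 to 88.7 CPM in other stromal cells. AW112010, Kera (keratocan) and F3 (tissue factor) also passed, with interactions of -2.74, -2.45 and -1.91. Of 22 cell cycle genes, 0 passed the interaction test by edgeR and 3 had an unadjusted p under 0.05.

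The members of p7N3 libraries were compared with those of day 7. Of 10505 genes tested, 1 passed (0.00952%) by edgeR, Ctgf, encoding connective tissue growth factor (CCN2), a matricellular protein induced by TGF-β and by mechanical load (chromosome 10, 24595442 to 24598683, plus strand). Ctgf stood at 252, 218, 204 and 187 CPM at day 7 and 57.3, 91.3, 102 and 79.4 CPM in p7N3. The lowest day 7 library lay above the highest p7N3 library, and the log2 fold change was -1.39 (SE 0.155, edgeR quasi-likelihood, adjusted p = 0.00823). In replicates 1 to 3 alone it was -1.43 (edgeR quasi-likelihood, adjusted p = 0.0614), and with the rule on thinned cells -1.34 (adjusted p = 0.124). At an unadjusted p under 0.05 there were 1027 genes (9.78%), and DESeq2 called 37.

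Ctgf was also lower in other stromal cells, at 89.9, 68.9, 66.8 and 95.9 CPM at day 7 and 34.8, 28.8, 50.2 and 64.6 CPM in p7N3. No gene passed the interaction test of cell class with treatment by edgeR (0 of 12050, 477 at an unadjusted p under 0.05). Among the lists by edgeR, 0 of 20 tendon genes, 0 of 18 fibrillar collagens, 0 of 24 TGF-β genes and 0 of 22 cell cycle genes passed, and 3, 3, 2 and 0 of them had an unadjusted p under 0.05. Cartilage genes had the lowest median log2 change among the lists of matrix and signalling genes. It was -0.53 over 12 tested genes, against 0.00 for all genes tested. By edgeR 0 of the 12 passed and 5 had an unadjusted p under 0.05. Cells with at least 2 Col2a1 UMIs, which the rule leaves out, numbered 66 in day 7 replicate 2. The other day 7 libraries held 4, 12 and 6 and those of p7N3 2, 7, 7 and 3. The part of RNA from such cells in the cartilage values was not tested. Skeletal muscle markers had a median log2 change of 3.82 over 6 tested genes, beside the high level of p7N3 replicate 4 given above; 0 of the 6 passed and all 6 had an unadjusted p under 0.05. Granulocyte markers, which summed to 120 CPM at day 7 and 218 in p7N3, had a median of 0.89 over 2 tested, of which 0 passed and both had an unadjusted p under 0.05. Of 4 pericyte and smooth muscle markers 0 passed and 2 had an unadjusted p under 0.05. The part of these markers in the values for p7N3 was not tested. Spp1 averaged 841 ± 148 CPM at day 7 and 507 ± 161 in p7N3, and Cxcl2, a neutrophil chemokine, 119 ± 30.5 and 219 ± 53.5, neither of which passed (edgeR quasi-likelihood, adjusted p = 0.278 and 0.188). Col9a3, a cartilage collagen, averaged 10.6 ± 11.9 and 1.99 ± 0.900 CPM (edgeR quasi-likelihood, adjusted p = 0.283).

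The members were not uniform. Clustering of all 2442 gave 10 clusters, described here without a test. Cluster 2 held 75 cells led by Chodl, Chad, Ptx4, Angptl7 and Cilp2, and 25 of the 26 day 0 members lay in it, with 4 of day 7, 11 of p7N3 and 35 of day 21. Of its p7N3 cells 9 came from replicate 4, and of its day 7 cells 3 came from replicate 1. The median UMI count of cluster 2 was 6987. Cluster 3 held 666 cells, 623 of day 21, and was led by Pi16, Nov, Wfdc1, Fam180a, Penk and Matn4. It took 84.7 ± 3.70% of the members of a day 21 library (SD, n = 4) and 3.41 ± 3.08% at day 7.

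Levels of tendon genes at day 21 were uneven between cells. In the 35 day 21 cells of cluster 2, Cilp2 stood at 1574 CPM, Chad at 771 and Chodl at 1084. In the 623 day 21 cells of cluster 3, Cilp2 stood at 148 CPM, Chad at 43.5 and Chodl at 0.971. Cilp2 was thus present in both clusters, while Chodl lay nearly wholly in cluster 2. After thinning, 80.8% of day 0 members, 1.37% of day 7 members and 19.05% of day 21 members had a Cilp2 UMI (84.6%, 6.31% and 54.4% before), against at most 0.706% of cells with Ptprc UMIs.

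Members of day 7 and p7N3 were spread over clusters 5 to 10. Cluster 8 (464 cells; Lipk, Wfdc18, Smoc1, Tnn) took 27.7 ± 16.2% of members at day 7 and 18.2 ± 7.43% in p7N3, and 49.1% of its cells came from day 7 replicate 2. Cluster 6 (361 cells; Actg2, Cnn1, Acta2, with hemoglobin genes) took 22.7 ± 4.90% and 21.6 ± 5.96%. Cluster 10 (255 cells; Birc5, Top2a, Cdk1) took 13.4 ± 3.18% and 13.1 ± 3.14%, and 3.10 ± 3.00% at day 21. Cluster 9 (198 cells; Cxcl1, Cxcl2, Ccl2, Fosb, Atf3) took 9.80 ± 2.55% and 15.9 ± 7.69%. Clusters 5 (182 cells; Crabp1, Prg4, Il1rl1) and 7 (141 cells; Ptx3, Slpi, Sfrp1, Sfrp2) took 9.85 ± 2.58% and 9.17 ± 3.89% at day 7. Cluster 4 held 16 cells led by Rgs5, Myh11 and Notch3, genes of pericytes and smooth muscle, 9 of them with top Scrublet scores.

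**Figure D5:**
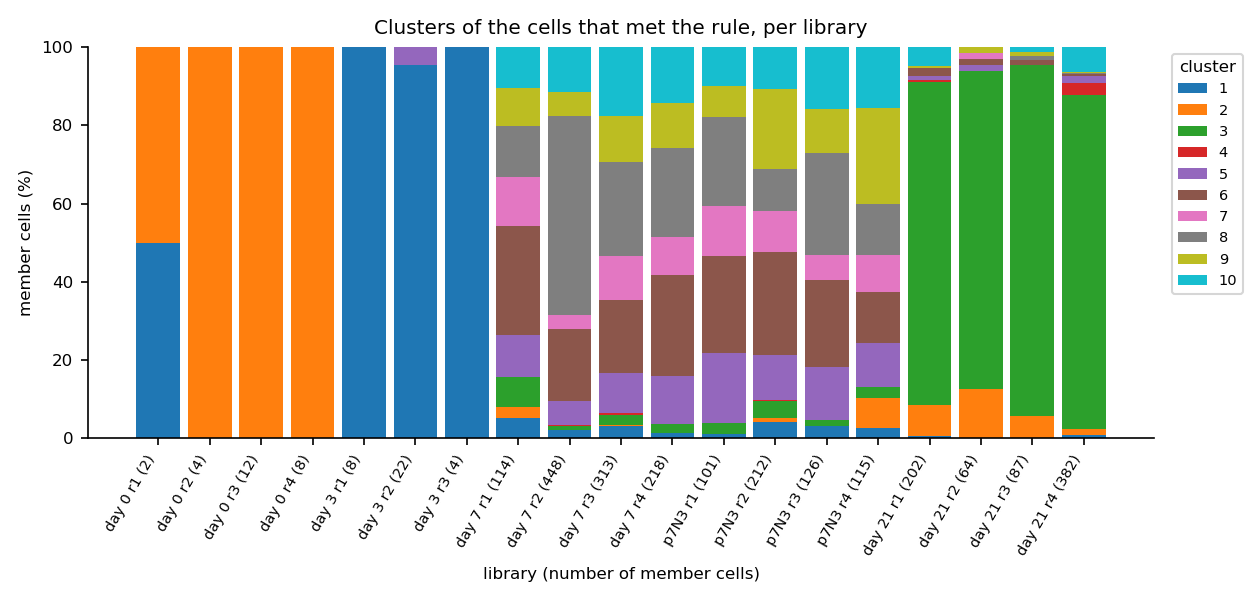
Share of the members of each library (%, vertical axis) in each of 10 clusters; the number of members is in brackets and r marks the replicate. Cluster 2 fills 3 of the 4 day 0 libraries, cluster 1 nearly all of day 3, and cluster 3 most of each day 21 library.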

How the data were processed

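Cells from the tenotomy site were captured on the 10x Genomics Chromium system with v2 chemistry. The authors made the deposited values, whole-number UMI counts per gene and barcode, with Cell Ranger on mm10 per the methods, and the submitters' notes also name Seurat and, for some libraries, GRCh38. Library sizes were not equalised in the deposited counts. The files hold 27998 genes. A barcode was kept if 500 genes or more were detected and mitochondrial UMIs did not exceed 25%, as in the study's methods, and members were taken by the stated rule. Doublet scores were computed but used as a filter only in an alternative. Depth is given as summed UMIs per library in the report.

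The members and the gene lists (39 lists, 608 genes, 601 of them in the files, 13 lists for other cell types) were chosen with earlier results of these data known. UMIs were summed per library over members, and libraries with at least 10 members entered edgeR (4.0.16 in R 4.3.3; TMM factors, filterByExpr, quasi-likelihood test, Benjamini-Hochberg adjusted p under 0.05). The day 0 fits, which lift that minimum, were added after the data were seen, as was the interaction of day 21 with day 7. Genes were named by a fixed rule: up to 10 per direction by log2 fold change (5 for the interaction) among those that passed, did not overlap between groups and reached 50 CPM in the higher group, plus up to 4 per list with the lowest adjusted p. Shares were tested by exact permutation over libraries in Python 3.11.15 with scipy 1.17.1. Clustering used scanpy 1.11.5 and igraph 0.11.9 (2000 variable genes, 30 components, 20 neighbours, resolution 0.5).

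The steps of the fits were also run on simulated counts with known changes. These had the same dispersion for every gene and changes only in well-counted genes. They do not cover genes of low level, such as many in the day 0 members. Alternatives were DESeq2 (1.42.0), other scaling, filters on cells and genes, variants of the rule, thinned cells, a replicate block and leaving out each library. Positions are those of the GENCODE vM21 annotation of GRCm38. Genotype was not analysed here.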

Additional observations from a re-analysis of the deposited data

Results flagged for a closer look

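In groups of 4 libraries, a library was marked where its gap to the nearest other exceeded Dixon's critical value. This held in 16 of 194 groups examined, and chance marks about 1 in 20.

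Day 0 replicate 1, with 2 members, held 4694 CPM over the macrophage and monocyte markers against 170, 155 and 153 CPM in the other day 0 libraries. Day 0 replicate 2 held 21.3 CPM over the lymphocyte markers, where the other libraries of day 0 had 0. In p7N3 replicate 4 the skeletal muscle markers summed to 3379 CPM against 14.8, 13.6 and 156 CPM, and the pericyte and smooth muscle markers to 381 CPM against 86.4, 117 and 101. In p7N3 replicate 3 the osteoblast markers summed to 10.5 CPM and the adipocyte markers to 1.88 CPM, both the highest of the group.

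Day 7 replicate 1, with 114 members the smallest library of its group, was the highest for several genes. Among them were Chodl at 18.0 CPM, Ptx4 at 18.0, Chad at 10.7 and Angptl7 at 92.7, with Col13a1 at 2.15 CPM. Prg4 stood at 509 CPM there against 253, 282 and 241 in the other libraries, Fcer1g at 110 CPM, Ptprc, whose UMIs the rule limits, at 9.01 CPM and the osteoblast markers at 15.9 CPM. At day 21, Ptx4 stood at 45.3 CPM in replicate 2 against 10.5, 5.20 and 3.49 CPM.

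A change between day 7 and day 21 that differed between tenocyte-like and other stromal cells, by the interaction test, marked 10 genes with the largest differences. The interaction on the log2 scale was 3.35 for Inhba, 3.04 for Pi16, 2.77 for Cyp26b1, 2.71 for 1810011O10Rik and 2.70 for Matn4. It was -3.38 for Pcolce2, -2.74 for AW112010, -2.45 for Kera, -1.91 for F3 and -1.81 for Gsn. No explanation of these patterns was tested.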

How the results depend on the processing

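Counts of genes passing an adjusted p of 0.05, by edgeR unless another tool is named, moved with several choices. For day 21 against day 7 the main count of 3424 became 1388 with the rule on thinned cells (of 7525 tested), 2296 in replicates 1 to 3 and 2581 to 3414 when 1 library was left out, and the replicate block gave 2641. For p7N3 against day 7 the main count of 1 became 4 when 2 of Fmod, Thbs4 and Mkx were required, 37 with DESeq2, 2 in a single fit of all groups, 10 with no filter on low counts, 0 in replicates 1 to 3, 0 with the rule on thinned cells and 1 to 5 with 1 library left out (5 without day 7 replicate 1). The replicate block gave 0 there. Ctgf had a log2 fold change of -1.40 and an edgeR adjusted p of 0.0776 with the replicate block, and an adjusted p of 0.00878 to 0.0388 with 1 library left out.

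For day 7 against day 0 the main count of 1098 became 128 with at least 10 UMIs in every library (of 251 tested), 1680 with no filter, 593 in replicates 1 to 3, 880 with the replicate block and 423 to 1283 with 1 library left out. For day 21 against day 0 the main count of 546 became 1171 in a single fit, 104 with at least 10 UMIs (of 252 tested), 1166 with no filter, 249 in replicates 1 to 3, 544 with the replicate block and 241 to 743 with 1 library left out. Fewer genes passed the filter without a day 7 library (1165 to 1180 tested) or a day 21 library (1082 to 1104 tested). Of the calls at day 7, 49.0% were higher with DESeq2, 44.5% with at least 10 UMIs, 50.1% with thinned cells and 38.96% to 40.37% without 1 day 7 library, against 69.0%. At day 21, 52.8% were higher with DESeq2, 41.35% with at least 10 UMIs, 39.76% to 41.58% without 1 day 21 library and 84.7% in the single fit, against 66.8%. The interaction of day 21 with day 7 called 162 genes with the replicate block and 152 to 368 with 1 library left out, and that of p7N3 called 0 in each alternative run.

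The share differed by 5.79 to 8.80 percentage points between day 7 and day 0, 9.08 to 13.2 between day 21 and day 0, 1.79 to 5.95 between day 21 and day 7, -4.76 to -1.75 between p7N3 and day 7 and -0.402 to -0.0052 between day 3 and day 0 when 1 library was left out. Among cells with at most 1 Ptprc UMI and no Cdh5, day 3 exceeded day 0 by 0.0441 percentage points. With the rule on thinned cells the log2 change from day 7 to day 21 turned to -1.26 for Il11 and to 0.35 for Cenpa; the cause was not tested. Of the values of single named genes under all alternatives for that comparison, 3308 kept their side of the threshold, 57 lost it, 14 gained it and 2 reversed; for the interaction 1677 kept it, 160 lost it and 31 gained it.

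Member profiles of same-numbered libraries did not track one another more than those of other pairs. Whether such libraries shared animals, preparation or sequencing run was not tested. Deviations of 12 same-numbered pairs correlated between -0.087 and 0.061 over 10893 genes, and those of 36 other pairs between -0.176 and 0.127. A minimum of 20 members could not be run for day 0, and gene fits of day 3 and interactions with day 0 were not run. The 26 day 0 members limit what the comparisons with day 0 can show for genes of low level.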
